A study of Rattus norvegicus with 24 samples.

Results

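The D-type cyclins, the kinases they activate and the inhibitors of those kinases were followed by symbol through all 6 groups of an RNA-seq series on INS-1 cells. Of 9 genes named (Ccnd1, Ccnd2, Ccnd3, Cdk4, Cdk6, Cdkn1a, Cdkn1b, Cdkn2c and Cdkn2d), 8 were found among the 26404 genes of the tables, and Cdkn2d was not analysed here. INS-1 cells come from a rat insulin-producing tumour, and as a tumour line they divide more than beta cells of the islet do. Cells spent 90 min at 3 mM glucose and were then given 11 mM glucose together with BMS-21 (a compound known here by its code name only, 1 µM), GLP-1 (100 nM, a hormone of the gut that acts on beta cells) or the vehicle DMSO (Control). RNA was taken after 6 h or 1 h, with 4 libraries in each of the groups BMS-21 6h, GLP-1 6h, Control 6h, BMS-21 1h, GLP-1 1h and Control 1h. The step in glucose is thus common to all groups, and each agent was given at 1 dose.

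A D-type cyclin binds CDK4 or CDK6, and the complex phosphorylates the RB protein, which frees E2F transcription factors and lets the cell pass from G1 into S phase. The INK4 proteins, among them the product of Cdkn2c (p18), bind the kinase itself and keep the cyclin away. The CIP/KIP proteins p21 (Cdkn1a) and p27 (Cdkn1b) bind cyclin-kinase complexes and inhibit CDK2 above all. In mice, Cdk4 and Ccnd2 are needed for the beta cell mass to grow after birth, and p27 and p18 hold it back. The GLP-1 receptor raises cAMP in beta cells, and the factor CREB, activated by cAMP, binds the motif TGACGTCA or its shorter form TGACG.

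Of the 8 genes, 5 had a promoter in the RefSeq table (build GRCr8), namely Ccnd3, Cdk4, Cdkn1a, Cdkn1b and Cdkn2c. The 250 bases before the start of Ccnd3 (chr9:20897876-20898125, minus strand) and of Cdkn1b (chr4:169491254-169491503, plus strand) are shown because both genes passed the test against Control after either agent, with TGACG or its reverse complement in capitals. Those of Cdk4 (chr7:64771203-64771452, plus strand) are shown beside them because Cdk4 did not pass it, with CACGTG, the E-box that MYC binds, in capitals. Each is written 5′ to 3′ on the strand of its gene.
Ccnd3: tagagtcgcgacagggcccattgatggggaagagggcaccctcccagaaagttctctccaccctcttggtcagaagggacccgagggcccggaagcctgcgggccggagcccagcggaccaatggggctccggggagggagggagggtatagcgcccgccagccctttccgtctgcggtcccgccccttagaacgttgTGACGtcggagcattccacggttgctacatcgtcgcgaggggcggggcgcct
Cdkn1b: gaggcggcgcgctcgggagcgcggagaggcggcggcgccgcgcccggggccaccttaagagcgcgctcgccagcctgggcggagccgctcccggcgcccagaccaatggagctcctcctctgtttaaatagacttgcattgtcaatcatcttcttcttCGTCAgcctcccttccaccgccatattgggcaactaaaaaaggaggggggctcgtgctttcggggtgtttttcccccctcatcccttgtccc
Cdk4: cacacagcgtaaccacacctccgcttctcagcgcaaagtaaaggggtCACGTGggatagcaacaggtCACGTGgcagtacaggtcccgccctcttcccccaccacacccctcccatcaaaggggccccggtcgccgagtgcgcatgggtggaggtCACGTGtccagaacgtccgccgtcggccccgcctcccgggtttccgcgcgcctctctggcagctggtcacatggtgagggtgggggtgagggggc

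In Ccnd3 the shorter motif lay 52 to 48 bases before the start, and in Cdkn1b 92 to 88 bases before it. Cdkn1a, which did not pass against Control in the main fits, held it too, 243 to 239 bases before its start. Cdk4 and Cdkn2c did not hold it, and Ccnd1 had no promoter to search. Whether the motif bears on the response was not tested. Searched on both strands, TGACG was in 18.2% of 33469 promoters of the same length, so 3 of 5 is a count in few genes. The full motif TGACGTCA, which contains the shorter one, was in 1.59% of promoters and in 0 of the 5. CACGTG was in 5.59% of promoters and 3 times in that of Cdk4, with first bases 203, 183 and 95 before the start. The AP-1 motif TGANTCA (6.34%), the E2F motif TTTNNCGC (4.11%) and the FOXO motif TGTTTAC (3.21%) were in 0 of the 5, which says only that these letters are not in these windows.

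Levels are given in RPM, the share of a library's reads on the usual scale, with libraries set against each other by TMM over all 24, so that 1 scale serves both times. No transcript lengths were used, so levels are not compared between genes. Fold changes, their standard errors and adjusted p-values come from limma on log2 of the authors' normalised counts plus 1. The replicate number was not in these main fits, and calls of the genes followed that changed with it as a block are named. Genes entered a comparison when their 8 libraries averaged 10 or more. Adjusted p is Benjamini-Hochberg over all genes tested, and a gene passed the test under 0.05. A share of a library's reads was measured, so fewer cells that transcribe a gene and less of its RNA per cell cannot be told apart. Whether replicates came from separate cultures is not in the labels, and the p-values therefore measure only the spread between these libraries, which may be technical. Replicates 1 and 2 stood apart from replicates 3 and 4 over all genes, and values within each of these pairs are given beside the main results.

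After 6 h with either agent, cyclin D1 was about 6 times its Control level, cyclin D3 was higher and cyclin D2 lower. After 1 h, cyclin D1 and the inhibitor p27 were higher, and cyclin D3 slightly so. Cdk4, Cdkn1a and Cdkn2c did not pass the test against Control after either agent at either time in the main fits. Cdkn1a with GLP-1 at 6 h passed with a replicate block, and Cdk4 with BMS-21 at 6 h passed with library totals, as given below. With BMS-21 at 6 h, 3 of 7 genes tested passed against Control, 2 higher and 1 lower, where 33.6% of all 12640 genes passed (16.8% higher, 16.8% lower). GLP-1 at the same time also gave 3 of 7, 2 higher and 1 lower, where 31.7% of 12641 genes passed (16.2% higher and 15.6% lower). At 6 h the share of these genes that passed was thus near that of all genes. At 1 h 3 of 8 passed with BMS-21, all higher, where 5.91% of 12697 genes passed (3.54% higher, 2.37% lower). GLP-1 at that time also gave 3 of 8, all higher, where 6.58% of 12715 genes passed (4.17% higher and 2.41% lower). Libraries of agent and Control did not overlap for 4 of 7 genes with BMS-21 at 6 h (32.2% of all genes), 3 of 7 with GLP-1 at 6 h (30.6%), 2 of 8 with BMS-21 at 1 h (10.6%) and 2 of 8 with GLP-1 at 1 h (10.9%). Both agents were set against the same Control libraries, so their results are not independent of each other.

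**Figure D1:**
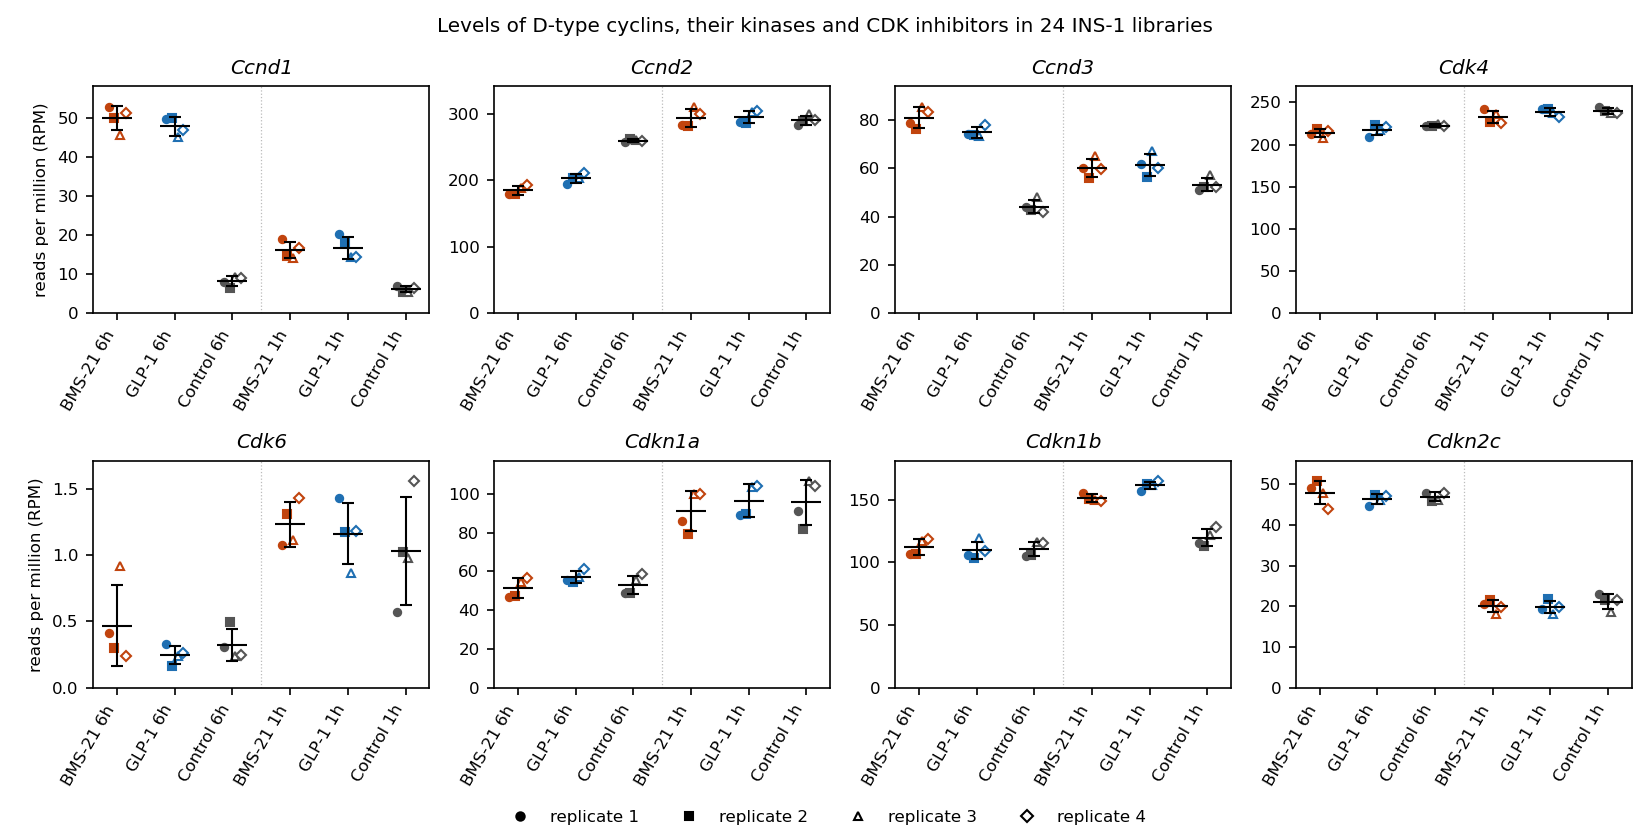
RPM of each gene (vertical axes, from 0) in each library, by group, with the 6 h groups left of the 1 h groups; points are libraries (filled for replicates 1 and 2, open for 3 and 4), long bars the mean and whiskers the SD over 4 libraries. Ccnd1 is at 44.95 to 52.8 RPM in both agents' libraries at 6 h and at 6.40 to 9.30 RPM in Control libraries at 6 h.

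Ccnd1 encodes cyclin D1, the member of the family that mitogens induce most. At 6 h it had 52.8, 49.9, 45.6 and 51.3 RPM in BMS-21 libraries and 49.6, 50.0, 44.95 and 46.75 RPM in GLP-1 libraries, against 8.01, 6.40, 9.30 and 9.01 RPM in Control libraries. At 1 h it had 18.9, 14.7, 14.2 and 16.7 RPM with BMS-21 and 20.2, 18.0, 14.3 and 14.25 RPM with GLP-1, against 6.94, 5.54, 5.36 and 6.56 RPM in Control. Every library of either agent was above every Control library of its time, and the agents overlapped each other. At 6 h the fold was 6.11 with BMS-21 (log2 2.61, SE 0.096, adjusted p = 5.44e-14, limma) and 5.87 with GLP-1 (log2 2.55, SE 0.0946, adjusted p = 6.62e-14). At 1 h it was 2.62 with BMS-21 (log2 1.39, SE 0.112, adjusted p = 2.85e-09, limma) and 2.70 with GLP-1 (log2 1.43, SE 0.118, adjusted p = 1.68e-09).

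The rise of Ccnd1 was present in both sets of replicates, on the log2 scale 2.83 in replicates 1 and 2 alone and 2.39 in 3 and 4 alone for BMS-21 at 6 h, and 2.79 and 2.32 for GLP-1. At 1 h the same values were 1.42 and 1.365 for BMS-21, and 1.61 and 1.26 for GLP-1. Ordered by mean RPM, the groups ran BMS-21 6h (49.9), GLP-1 6h (47.8), GLP-1 1h (16.7), BMS-21 1h (16.1), Control 6h (8.18) and Control 1h (6.10). Neighbours overlapped within each of these 3 pairs and were apart between them. The authors' deposited tables give log2 fold changes for Ccnd1 of 0.88 for BMS-21 at 1 h and 1.41 for GLP-1 at 1 h, and of 2.44 and 2.52 at 6 h. The lower deposited value for BMS-21 at 1 h stands beside a fitted value of 1.39 from the normalised counts of the same table.

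Ccnd2 encodes cyclin D2, the D-type cyclin best known from mouse beta cells. At 6 h it had 180.2, 179, 189 and 193 RPM in BMS-21 libraries and 195, 204, 203 and 212 RPM in GLP-1 libraries, against 257, 262, 261 and 259 RPM in Control libraries. At 1 h it had 284, 283, 311 and 300.3 RPM with BMS-21 and 288, 287, 303.5 and 304 RPM with GLP-1, against 283, 289, 299.7 and 291 RPM in Control. The 3 groups at 6 h did not overlap one another, with BMS-21 lowest and Control highest, and the 3 groups at 1 h overlapped. At 6 h Ccnd2 fell by 0.49 on the log2 scale with BMS-21 (1.40-fold lower, SE 0.0354, adjusted p = 4.41e-10, limma) and by 0.35 with GLP-1 (1.27-fold lower, SE 0.0333, adjusted p = 5.04e-08). At 1 h the log2 differences were 0.02 for BMS-21 (95% interval -0.06 to 0.10) and 0.03 for GLP-1 (-0.04 to 0.10), not past the threshold. Within the sets of replicates, the 6 h difference was -0.53 and -0.45 for BMS-21 and -0.38 and -0.33 for GLP-1, with replicates 1 and 2 first.

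Ccnd3 encodes cyclin D3, which pairs with the same kinases. At 6 h it had 79.05, 76.3, 85.6 and 83.4 RPM in BMS-21 libraries and 74.1, 73.8, 73.65 and 78.2 RPM in GLP-1 libraries, against 44.1, 42.7, 48.0 and 41.8 RPM in Control libraries. All 8 agent libraries were above all 4 Control libraries at 6 h, and the agents overlapped. The fold at 6 h was 1.84 with BMS-21 (log2 0.88, SE 0.0533, adjusted p = 2.43e-11, limma) and 1.70 with GLP-1 (log2 0.77, SE 0.0501, adjusted p = 1.77e-10). In replicates 1 and 2 alone and in 3 and 4 alone, the log2 change at 6 h was 0.84 and 0.92 for BMS-21 and 0.77 and 0.76 for GLP-1.

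At 1 h Ccnd3 had 60.02, 56.1, 65.2 and 59.99 RPM with BMS-21 and 61.7, 56.3, 67.4 and 60.04 RPM with GLP-1, against 51.0, 52.3, 57.25 and 52.4 RPM in Control. The groups overlapped at 1 h, although each agent library was above the Control library of its own number in 4 of 4 pairs. The log2 change was 0.18 with BMS-21 (SE 0.0539, adjusted p = 0.0467, limma) and 0.21 with GLP-1 (SE 0.0557, adjusted p = 0.0208). These 2 calls were near the threshold in the main fits. With a replicate block both held, at adjusted p = 0.000967 for BMS-21 and 0.000167 for GLP-1 in limma. In edgeR with the block, adjusted p was 0.000838 and 0.000116. The call for BMS-21 was lost without Control replicate 1, 2 or 4 or without BMS-21 replicate 1, 3 or 4 (adjusted p 0.0953 to 0.161, limma), without the filter (0.0711), with TMM factors (0.0543), with library totals (0.115), with DESeq2 (0.105), in replicates 1 and 2 alone (0.0917) and in 3 and 4 alone (0.165). For GLP-1 it was lost without Control replicate 1, 2 or 4 or GLP-1 replicate 1 or 3 (adjusted p 0.052 to 0.0979, limma), with library totals (0.064) and in replicates 3 and 4 alone (0.0695). The authors' deposited tables give adjusted p = 0.0938 for BMS-21 and 0.0375 for GLP-1 for this gene at 1 h.

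**Figure D2:**
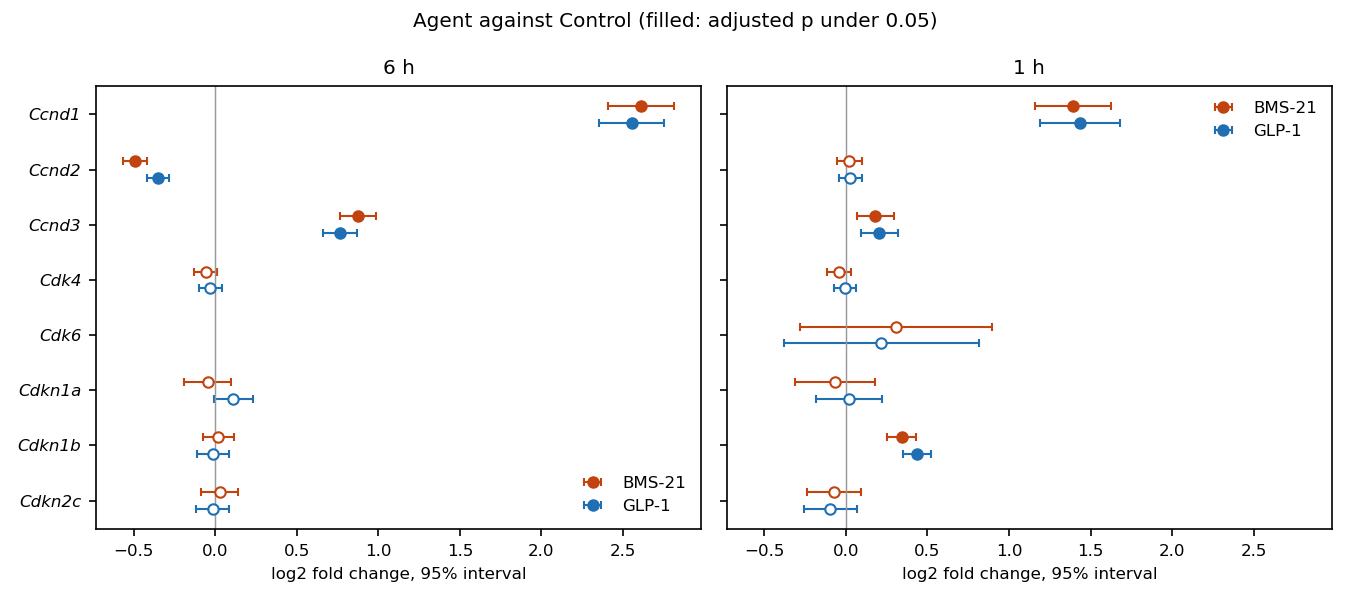
Log2 fold change of BMS-21 and of GLP-1 against Control with 95% intervals (limma, 4 libraries a group), at 6 h on the left and 1 h on the right; filled points passed the test, and Cdk6 was below the filter at 6 h. Ccnd1 and Ccnd3 lie right of 0 and Ccnd2 left of it at 6 h, and Cdkn1b is filled at 1 h but not at 6 h.

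The kinases were Cdk4 and Cdk6, whose products bind the D-type cyclins. Cdk4 had 212, 218, 207.5 and 216 RPM with BMS-21 at 6 h and 209, 223, 217 and 221 RPM with GLP-1, against 221, 222, 224.5 and 222 RPM in Control. At 1 h its range was 226 to 242 RPM with BMS-21 and 233 to 243 RPM with GLP-1, against 237.5 to 245 RPM in Control. Every BMS-21 library at 6 h was below every Control library, but the difference of -0.06 (95% interval -0.13 to 0.01) did not pass the test (adjusted p = 0.201, limma). Scaled by library totals it was -0.12 and passed (adjusted p = 0.014). The other differences of Cdk4 were -0.03 for GLP-1 at 6 h (-0.10 to 0.04), -0.04 for BMS-21 at 1 h (-0.12 to 0.03) and -0.00 for GLP-1 at 1 h (-0.07 to 0.06).

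Cdk6 was counted in few reads. It had 5, 4, 11 and 3 reads with BMS-21 at 6 h and 4, 2, 3 and 3 with GLP-1, against 4, 6, 3 and 3 in Control, which is at or near the floor of 3 reads taken as the limit of detection. At 1 h it had 13, 14, 14 and 16 reads with BMS-21 and 18, 14, 10 and 14 with GLP-1, against 7, 12, 12 and 18 in Control. It was below the filter at 6 h and was tested at 1 h, where the log2 difference was 0.31 for BMS-21 (95% interval -0.28 to 0.90) and 0.22 for GLP-1 (-0.38 to 0.82). Both intervals hold 0, so at this depth changes of either sign within them remain possible.

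Among the inhibitors, Cdkn1b (p27) was higher at 1 h and not at 6 h. At 1 h it had 156, 151, 149.5 and 149 RPM with BMS-21 and 157, 162, 161 and 165 RPM with GLP-1, against 115, 113, 122 and 128 RPM in Control. The 3 groups at 1 h did not overlap, with GLP-1 highest and Control lowest. The fold was 1.27 with BMS-21 (log2 0.34, SE 0.0428, adjusted p = 4.29e-06, limma) and 1.35 with GLP-1 (log2 0.44, SE 0.0417, adjusted p = 1.37e-08). In replicates 1 and 2 alone the change was 0.43 for BMS-21 and 0.49 for GLP-1, and in 3 and 4 alone it was 0.25 and 0.39. At 6 h Cdkn1b had 107, 107, 117 and 118 RPM with BMS-21 and 106, 104, 119 and 109 RPM with GLP-1, against 105, 106, 116 and 115 RPM in Control. These overlapped, with log2 differences of 0.02 (95% interval -0.08 to 0.12) and -0.01 (-0.11 to 0.09).

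Cdkn1a encodes p21, which slows the cell cycle. At 6 h it had 47.0, 47.2, 54.5 and 56.7 RPM with BMS-21 and 55.5, 54.4, 57.2 and 61.2 RPM with GLP-1, against 49.05, 49.04, 55.6 and 58.5 RPM in Control. In all 6 groups both libraries of replicates 3 and 4 were above both of replicates 1 and 2, as in the plot of levels by library. The log2 difference at 6 h was -0.05 for BMS-21 (95% interval -0.19 to 0.10) and 0.11 for GLP-1 (-0.01 to 0.23, adjusted p = 0.156, limma). GLP-1 libraries were above the Control library of their own number in 4 of 4 pairs, and in fits with a replicate block the value of 0.11 passed the test (adjusted p = 0.0287 in limma and 0.0305 in edgeR). It also passed in replicates 1 and 2 alone (0.17, adjusted p = 0.027, limma) and without Control replicate 4 (0.16, adjusted p = 0.0483), but not in replicates 3 and 4 alone (0.06, adjusted p = 0.545). At 1 h Cdkn1a ranged over 79.4 to 100 RPM with BMS-21 and 89.0 to 104 RPM with GLP-1, against 81.6 to 106 RPM in Control, with log2 differences of -0.06 (-0.31 to 0.18) and 0.02 (-0.19 to 0.22).

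Cdkn2c, the INK4 gene among those measured, had 48.9, 50.7, 47.7 and 44.0 RPM with BMS-21 at 6 h and 44.7, 47.4, 46.0 and 47.0 RPM with GLP-1, against 47.8, 45.9, 46.0 and 47.8 RPM in Control. At 1 h it had 20.7, 21.6, 18.2 and 19.85 RPM with BMS-21 and 19.4, 21.7, 18.2 and 19.8 RPM with GLP-1, against 23.0, 21.6, 18.6 and 21.5 RPM in Control. The groups of a time overlapped. Its log2 differences were 0.03 (95% interval -0.08 to 0.14) and -0.02 (-0.12 to 0.08) at 6 h, and -0.07 (-0.24 to 0.09) and -0.09 (-0.26 to 0.07) at 1 h, with BMS-21 first. The related inhibitor genes Cdkn1c and Cdkn2a had at most 1 read in any library, and Cdkn2b, which encodes p15, had 1 to 14 reads, so none of these 3 was tested.

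The groups given the agents were also compared with each other, at different doses (1 µM BMS-21 and 100 nM GLP-1). At 6 h 0 of 7 genes passed the test in limma, and 0 did in edgeR or DESeq2, where 0.0158% of 12629 genes passed in limma (0.00792% higher and 0.00792% lower). At an unadjusted p under 0.05 the genes were Ccnd2, Ccnd3 and Cdkn1a with each of the 3 tools, 3 of 7 in limma and edgeR and 3 of 8 in DESeq2. The share of all genes under that p at 6 h is not reported here, so this count does not set them apart. For Ccnd2 the groups did not overlap, which held for 3.84% of all genes, and the log2 difference of BMS-21 minus GLP-1 was -0.13 (95% interval -0.21 to -0.06, adjusted p = 0.407, limma). BMS-21 was lower in 4 of 4 pairs of one number, and in fits with a replicate block Ccnd2 passed the test (adjusted p = 0.00504 in limma and 0.0041 in edgeR). Within the sets of replicates it was -0.15 (adjusted p = 0.0799, limma) and -0.12 (0.331). The differences at 6 h were 0.11 for Ccnd3 (0.02 to 0.21), higher with BMS-21 in 4 of 4 pairs, and -0.16 for Cdkn1a (-0.29 to -0.03), lower with BMS-21 in 4 of 4 pairs, both with adjusted p = 0.745 in limma. With a replicate block neither passed. Adjusted p was then 0.166 for Ccnd3 and 0.0659 for Cdkn1a in limma, and 0.149 and 0.0703 in edgeR.

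For Ccnd1 the difference of BMS-21 minus GLP-1 was 0.06 at 6 h (95% interval -0.06 to 0.18) and -0.04 at 1 h (-0.29 to 0.20). At 1 h 0 of 8 genes passed in limma, edgeR or DESeq2, as did 0% of all 12672 genes in limma. An unadjusted p under 0.05 was found for 432 of 12672 genes in limma, 423 of 12724 in edgeR and 178 of 18717 in DESeq2. Among the 8 genes it was found for Cdkn1b, 1 of 8 with each tool, whose log2 difference was -0.09 (-0.17 to -0.02). Its groups were apart, as were those of 2.51% of all genes, and BMS-21 was lower in 4 of 4 pairs. A p that misses the threshold does not show that the agents act alike on these genes, and the intervals give the sizes that remain possible.

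**Figure D3:**
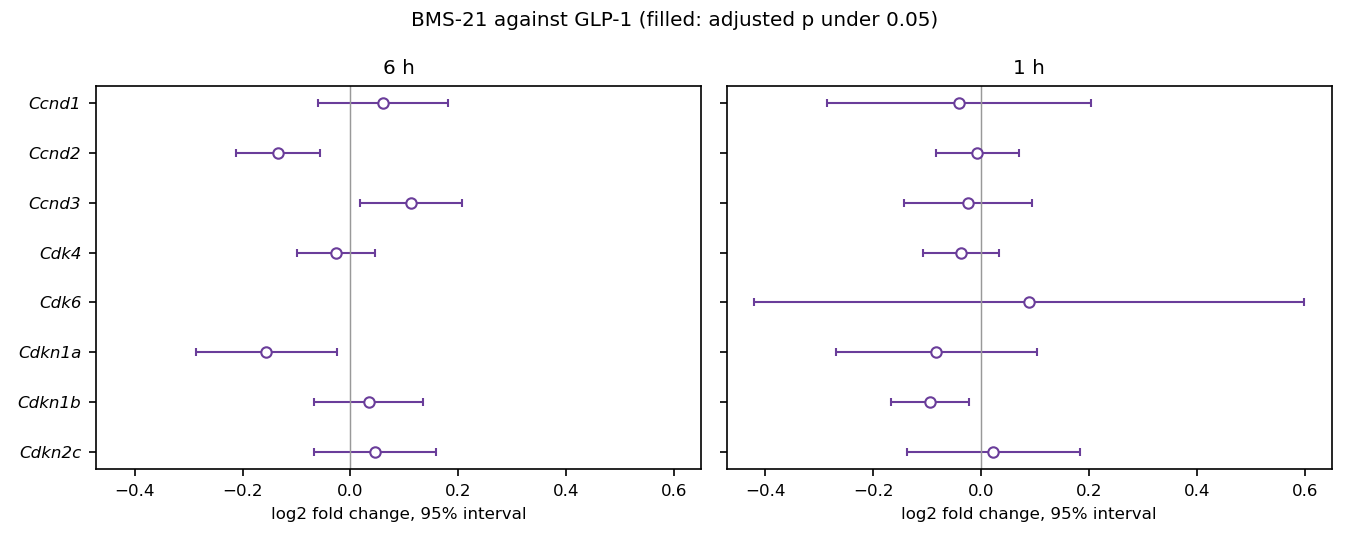
Log2 fold change of BMS-21 over GLP-1 with 95% intervals (limma, 4 libraries a group) at 6 h on the left and 1 h on the right; open points did not pass the test. At 6 h the intervals of Ccnd2 and Cdkn1a lie left of 0 and that of Ccnd3 right of it, and at 1 h that of Cdkn1b lies left of 0.

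Control cells were moved to 11 mM glucose as well, and their levels at 6 h were compared with those at 1 h. For comparisons across times, reads recovered from the tables were scaled by TMM over all 24 libraries and fitted with limma in 1 model. Control libraries at 6 h differed from those at 1 h in 7 of 7 genes tested, 2 higher and 5 lower, where 54.0% of all 12693 genes passed (27.3% higher and 26.6% lower). Cdkn2c was higher at 6 h, with means of 46.9 ± 1.09 RPM at 6 h and 21.2 ± 1.86 RPM at 1 h (SD, n = 4 each), a log2 difference of 1.15 (SE 0.0647, adjusted p = 3.88e-17, limma). Cdkn1a was lower at 6 h, with 53.05 ± 4.77 RPM at 6 h and 95.75 ± 11.6 RPM at 1 h (SD, n = 4 each), a log2 difference of -0.85 (SE 0.0931, adjusted p = 8.38e-08, limma). The 6 h and 1 h libraries did not overlap for these 2 genes nor for Ccnd2, Ccnd3 and Cdk4, 5 of 7, as for 48.1% of all genes.

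The changes of the cyclins with time in Control were smaller. Ccnd1 was 0.41 higher at 6 h on the log2 scale (SE 0.115, adjusted p = 0.00336, limma), a value of 0.21 in replicates 1 and 2 alone (adjusted p = 0.147) and 0.62 in 3 and 4 alone. Ccnd2 was lower by -0.16 (SE 0.0349, adjusted p = 0.000178, limma) and Ccnd3 by -0.27 (SE 0.0545, adjusted p = 7.17e-05). Cdk4 differed by -0.11 (SE 0.0306, adjusted p = 0.0029, limma), and by -0.09 with adjusted p = 0.0668 in replicates 3 and 4 alone. Cdkn1b differed by -0.11 (SE 0.0454, adjusted p = 0.0379, limma). With a replicate block the call held (adjusted p = 0.00469, limma), as it did in replicates 1 and 2 alone (0.0319). That call was lost without the filter (adjusted p = 0.0685), with library totals (0.0829), with DESeq2 (0.0559), in replicates 3 and 4 alone (0.0629), and without 6 h replicate 1 or 2 or 1 h replicate 3 or 4 (-0.10 to -0.08, adjusted p 0.0856 to 0.173). Cdk6 was below the filter, and its Control libraries had 0.243 to 0.499 RPM at 6 h and 0.571 to 1.56 RPM at 1 h, without overlap. Where Cdk6 was tested, it was lower at 6 h, by -1.42 in limma without the filter (adjusted p = 0.000681), -1.64 in edgeR (adjusted p = 0.00042) and -1.67 in DESeq2 (adjusted p = 0.00186). With it edgeR called 8 of 8 genes, and DESeq2 called 7 of 8, since Cdkn1b was not past its threshold.

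Whether the response to an agent differed between the times was tested as the difference of the 2 log2 responses, 6 h minus 1 h. The same 4 of 7 genes passed for both agents, 2 higher and 2 lower, and the agents share the Control libraries. Of all 12693 genes, 22.2% passed for BMS-21 (11.1% higher and 11.1% lower) and 17.8% for GLP-1 (8.84% higher and 8.99% lower). The Ccnd1 response was larger at 6 h by 1.22 for BMS-21 (SE 0.163, adjusted p = 1.61e-06, limma) and by 1.12 for GLP-1 (SE 0.163, adjusted p = 8.09e-06). The Ccnd3 response was larger at 6 h by 0.70 for BMS-21 (SE 0.0771, adjusted p = 1.02e-08, limma) and by 0.56 for GLP-1 (SE 0.0771, adjusted p = 1e-06). For Ccnd2 the change was -0.51 for BMS-21 (SE 0.0494, adjusted p = 6.41e-10, limma) and -0.38 for GLP-1 (SE 0.0494, adjusted p = 3.82e-07). For Cdkn1b, where the response was at 1 h, it was -0.32 for BMS-21 (SE 0.0641, adjusted p = 0.000272, limma) and -0.45 for GLP-1 (SE 0.0641, adjusted p = 2.1e-06). The intervals for Cdk4, Cdkn1a and Cdkn2c all held 0, and those of Cdkn1a ran from -0.25 to 0.29 for BMS-21 and from -0.18 to 0.37 for GLP-1.

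**Figure D4:**
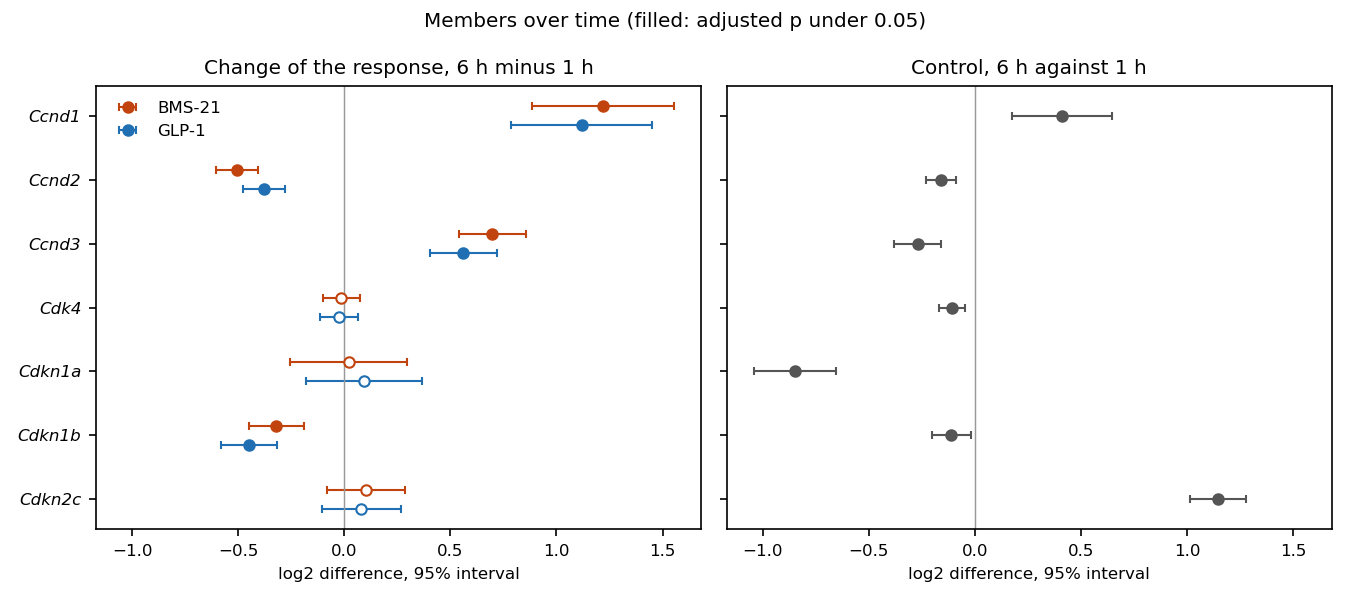
Left, the change of each agent's log2 response between the times (6 h minus 1 h); right, log2 fold change of Control at 6 h over 1 h; both with 95% intervals from limma over 24 libraries, filled where the test was passed. Ccnd1 and Ccnd3 lie right of 0 and Ccnd2 and Cdkn1b left of it on the left, and Cdkn2c (1.15) and Cdkn1a (-0.85) are farthest from 0 on the right.

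Each gene's levels were also put in order over the 6 groups. Ccnd3 ran by mean RPM from BMS-21 6h (81.1) through GLP-1 6h (74.9), GLP-1 1h (61.35), BMS-21 1h (60.3) and Control 1h (53.25) to Control 6h (44.15). Its 2 agent groups at 6 h overlapped, as did the 3 groups at 1 h. Ccnd2 ran from GLP-1 1h (296) through BMS-21 1h (294.5), Control 1h (291), Control 6h (259.9) and GLP-1 6h (203) to BMS-21 6h (185), and only its 3 groups at 1 h overlapped. Cdkn1b ran from GLP-1 1h (161) through BMS-21 1h (151), Control 1h (119.6), BMS-21 6h (112) and Control 6h (111) to GLP-1 6h (109.6), and from Control 1h downward neighbours overlapped. For Cdkn2c, Cdkn1a and Cdk4 the 3 groups at 6 h were apart from the 3 at 1 h, and neighbours overlapped within each time. Cdk6 had group means of 0.250 to 0.468 RPM at 6 h and 1.03 to 1.23 RPM at 1 h, and all its neighbours overlapped.

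The genes most like each cyclin were taken by Pearson correlation of log2 scaled reads over the 24 libraries, among 9850 genes with a symbol that averaged 50 scaled reads or more. The libraries form 6 groups, so such values mostly restate the group means and are descriptions. The 5 nearest to Ccnd1 were Rxfp3, a receptor for relaxin family peptides (r = 0.984), Ufm1 (0.978), Mfsd2a (0.972), Stc1, which encodes stanniocalcin 1 (0.970), and Tpm4 (0.958). Rxfp3 averaged 27.2 RPM with BMS-21 and 25.5 RPM with GLP-1 at 6 h, against 2.90 RPM in Control, and 6.56 and 6.87 RPM with the agents at 1 h, against 2.47 RPM in Control. The 5 nearest to Ccnd2 were Ppp1r1a, an inhibitor of protein phosphatase 1 (r = 0.98), Utrn (0.98), Lrrc39 (0.97), Ankrd40 (0.97) and Hnrnpu (0.97). Those nearest to Ccnd3 were Clic1 (0.958), Tmem100 (0.954), Igf1r, the receptor for insulin-like growth factor 1 (0.953), Atp2a2 (0.951) and Ptprn (0.951). Igf1r averaged 206 RPM with BMS-21 and 167 RPM with GLP-1 at 6 h, against 43.25 RPM in Control, and 92.8 and 90.8 RPM at 1 h, against 89.4 RPM in Control.

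Genes that act beside or after the D-type cyclins were read from 5 lists of 52 genes, of which 50 were tested at 1 h and 49 at 6 h. The calls at 1 h were 2 higher and 1 lower for each agent, the genes being Fbxw7, Pcna and Foxo1 in both. That is 6% of the 50, beside 5.91% of all genes with BMS-21 and 6.58% with GLP-1. Fbxw7, the F-box protein that marks cyclin E for breakdown, averaged 34.2 ± 4.68 RPM with BMS-21 and 33.3 ± 2.45 RPM with GLP-1, against 18.9 ± 1.61 RPM in Control at 1 h (SD, n = 4 each), which was 1.80-fold (adjusted p = 8e-07, limma) and 1.76-fold (adjusted p = 4.9e-09) higher. Foxo1, a factor that in mice activates Cdkn1b, averaged 54.8 ± 3.71 RPM with BMS-21 and 51.7 ± 3.39 RPM with GLP-1, against 66.8 ± 2.67 RPM in Control (SD, n = 4 each). It fell by 0.29 on the log2 scale with BMS-21 (adjusted p = 0.000823, limma) and by 0.37 with GLP-1 (adjusted p = 1.4e-05). Pcna, the clamp of DNA polymerases, rose by 0.13 with BMS-21 and 0.16 with GLP-1 on the log2 scale (adjusted p = 0.0303 and 0.00431, limma). Myc averaged 47.5 ± 14.3 RPM with BMS-21 and 48.1 ± 13.5 RPM with GLP-1, against 88.0 ± 20.7 RPM in Control at 1 h (SD, n = 4 each), log2 differences of -0.90 and -0.88 that did not pass the test (adjusted p = 0.13 and 0.121, limma). Its libraries ran from 38.0 to 68.25 RPM with BMS-21 and from 37.8 to 67.15 RPM with GLP-1, against 69.8 to 115 RPM in Control, without overlap, and Myc was lower in 4 of 4 pairs with each agent. It passed with a replicate block (adjusted p = 2.23e-31 for BMS-21 and 1.67e-34 for GLP-1, limma) and in DESeq2 (0.0192 and 0.0163). In replicates 1 and 2 alone it was -0.91 and -0.89 and passed, and in 3 and 4 alone it was -0.89 and -0.87 and did not (adjusted p = 0.512 and 0.453, limma). With the block the lists had 6 of 50 genes called at 1 h for each agent, 3 higher and 3 lower for BMS-21 and 2 higher and 4 lower for GLP-1. The same fits called 1551 of all 12697 genes for BMS-21 and 1513 of 12715 for GLP-1, so these counts do not set the lists apart.

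At 6 h the 5 lists had 4 genes higher and 14 lower of 49 with BMS-21, and 5 higher and 10 lower with GLP-1. These are 36.7% and 30.6% of the 49, close to the 33.6% and 31.7% of all genes that passed. The counts summed over both directions thus do not set these genes apart. By direction, more of the 49 were lower than higher with each agent. All genes split near evenly, at 16.8% higher and 16.8% lower with BMS-21 and 16.2% and 15.6% with GLP-1. With a replicate block in limma, 6 were higher and 20 lower with BMS-21, and 5 higher and 16 lower with GLP-1. Whether this lean towards lower exceeds chance was not tested. In the list of the RB family and E2F, 1 of 13 was higher and 2 lower with BMS-21 and 2 higher and 2 lower with GLP-1, with medians of -0.08 and -0.07 on the log2 scale against -0.0015 and -0.000655 over all genes. Rb1, the gene of the RB protein, was higher by 0.39 with BMS-21 (adjusted p = 6.09e-06, limma) and by 0.31 with GLP-1 (adjusted p = 0.000185). E2f1, which RB restrains, fell by 0.30 with BMS-21 (adjusted p = 0.000536, limma) and by 0.36 with GLP-1 (adjusted p = 3.58e-05). E2f7 fell by 0.26 with BMS-21 (adjusted p = 0.0142, limma) and Tfdp2, a partner of E2F, fell by 0.48 with GLP-1 (adjusted p = 0.00772).

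Of the cyclin E, cyclin A, CDK2 and CDK-activating kinase genes at 6 h, 1 of 9 was higher and 4 lower with BMS-21 (median -0.15), and 1 was higher with GLP-1 (median -0.07), where 16.8% of all genes were higher and 16.8% lower with BMS-21, and 16.2% higher and 15.6% lower with GLP-1. Ccnh, a subunit of the CDK-activating kinase, was 0.23 higher with each agent (adjusted p = 0.00523 with BMS-21 and 0.00779 with GLP-1, limma). Cdk2 fell by 0.22 and Ccna1 by 0.50 with BMS-21 (adjusted p = 0.0136 and 0.0185, limma). Among S phase and mitosis genes, 5 of 12 were lower with BMS-21 (median -0.14), and with GLP-1 1 was higher and 4 lower (median -0.07), against the same shares of all genes. Mcm2, a subunit of the replicative helicase, averaged 176.5 ± 1.48 RPM with BMS-21 and 179 ± 5.25 RPM with GLP-1, against 205 ± 3.90 RPM in Control at 6 h (SD, n = 4 each). It fell by 0.22 (adjusted p = 3.27e-05, limma) and by 0.19 (adjusted p = 0.000192), and Mcm3 and Mcm6 fell by 0.11 to 0.20 with adjusted p of at most 0.0118 in limma.

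The turnover genes at 6 h gave 1 higher of 6 with BMS-21, Fbxw7 (0.23, adjusted p = 0.011, limma), and 1 lower with GLP-1, Fbxo31 (-0.24, adjusted p = 0.0359). Each is 16.7% of the list, where 33.6% of all genes passed with BMS-21 and 31.7% with GLP-1. The regulators of transcription gave 1 higher and 3 lower of 9 with each agent (44.4%, beside the same shares of all genes). Foxo1 fell by 0.23 with BMS-21 and by 0.21 with GLP-1 (adjusted p = 0.00135 and 0.013, limma). Mdm2, a ubiquitin ligase, was higher by 0.16 and 0.13 (adjusted p = 0.00871 and 0.0252, limma). Ezh2, a methyltransferase that silences Cdkn2a, fell by 0.16 with GLP-1 (adjusted p = 0.0225, limma). Its level was much the same with BMS-21, at means of 58.4 ± 1.47 RPM with BMS-21, 58.9 ± 2.57 RPM with GLP-1 and 66.2 ± 4.70 RPM in Control at 6 h (SD, n = 4 each). Cdkn2a itself had at most 1 read in any library.

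In Control cells the 5 lists had 27 higher and 9 lower of 49 at 6 h, 73.5% in all. Of all genes 54.0% passed, 27.3% higher and 26.6% lower. All 12 S phase and mitosis genes tested were higher at 6 h, with a median of 0.64 against 0.00324 over all genes. Mki67, a marker of dividing cells, averaged 289 ± 15.6 RPM at 6 h and 178 ± 5.26 RPM at 1 h (SD, n = 4 each), a log2 difference of 0.70 (adjusted p = 8.9e-17, limma). Mcm5 was higher by 0.78 (adjusted p = 4.06e-15, limma) and Cdk2 by 0.84 (adjusted p = 7.03e-13). Rb1 was lower at 6 h, by -0.61 (adjusted p = 4.14e-11, limma). The response to an agent changed between the times in 9 of 49 genes of the lists with BMS-21 (18.4%, beside 22.2% of all genes). With GLP-1 it changed in 8 of 49 (16.3%, beside 17.8%). Among those that passed were Fbxw7 (-0.61 for BMS-21 and -0.65 for GLP-1, adjusted p = 0.000105 and 5.4e-05, limma) and Myc (0.95 and 0.84, adjusted p = 0.0185 and 0.0421). E2f1, Pcna, Mcm2 and Mcm3 also passed for both agents, each with a negative change.

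**Figure D5:**
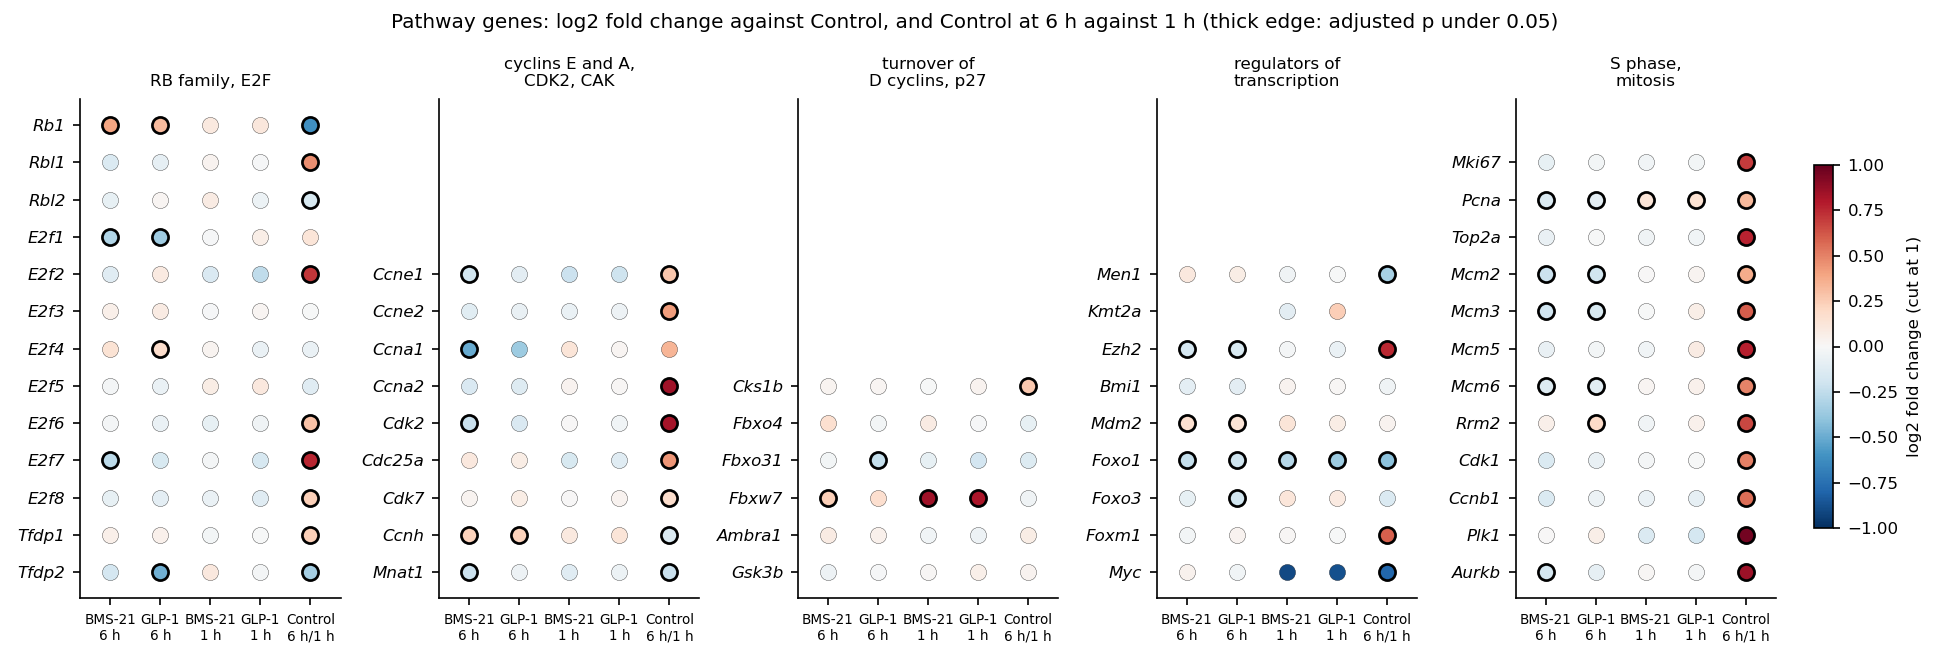
Each dot is 1 gene (rows) in 1 comparison (columns: BMS-21 and GLP-1 against Control at 6 h and at 1 h, and Control at 6 h against 1 h), coloured by log2 fold change and with a thick edge where the test was passed; a missing dot was below the filter, and 1 gene of the lists is not drawn. The column of Control over time is red for all S phase and mitosis genes (median 0.64), and Fbxw7 is dark red at 1 h with the agents (1.80-fold and 1.76-fold).

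The libraries held 10667350 to 13148970 reads, so that 3 reads correspond to 0.228 to 0.281 RPM, a limit that covers counting error only. Of 11 beta cell markers 10 had a row, all of them with reads in every library, with sums of 16763 to 19526 RPM in BMS-21 6h, 16445 to 17570 RPM in GLP-1 6h and 15443 to 16258 RPM in Control 6h. Of these 10, 5 were higher and 3 lower with BMS-21 at 6 h (80%, beside 33.6% of all genes) and 4 higher and 3 lower with GLP-1 (70%, beside 31.7%). Slc2a2, the glucose transporter GLUT2, was 1.602-fold lower with BMS-21 and 1.587-fold lower with GLP-1 at 6 h (adjusted p = 9.86e-13 and 7.97e-13, limma). At 1 h 4 markers were higher and 1 lower with BMS-21 (50%, beside 5.91% of all genes) and 3 higher and 1 lower with GLP-1 (40%, beside 6.58%). Mafa, an activator of the insulin genes, was 1.73-fold and 1.80-fold higher at 1 h (adjusted p = 1.21e-10 and 2.47e-11, limma), and Neurod1 was 1.47-fold and 1.45-fold lower (adjusted p = 0.000166 and 1.15e-07). Markers of other islet cells summed to 7.55 to 15.8 RPM, of which Gcg, the gene of glucagon, gave 6.58 to 14.05 RPM and Ghrl, that of ghrelin, 0.9745 to 2.39 RPM, while Irx2 had 0 reads in every library and Sst, Hhex and Ppy at most 2 reads. Gcg was 0.39 higher on the log2 scale with BMS-21 at 6 h (adjusted p = 0.0226, limma). The exocrine and duct markers summed to 0.346 to 1.36 RPM and those of stroma, endothelium and blood to 0 to 1.03 RPM, so the defining markers of these cells were at or near 0. The part of the beta cell markers' shifts in the results above was not tested.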

How the data were processed

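RNA of 24 INS-1 libraries was sequenced from mRNA libraries made with TruSeq RNA v2, per the labels' protocols, a kit that does not mark strand, so reads of an overlapping antisense gene cannot be told apart. The submitters' processing notes name the build Rnor_5.0, TopHat2 2.0.12, Bowtie2 2.2.3.0, SAMtools 0.1.19.0, Subread, DESeq and DESeq2 1.6.3. The authors deposited 6 tables, each holding the normalised signal (read counts divided by 1 size factor a library) of 2 groups, with a log2 fold change and an adjusted p-value from the authors' own test. Values were whole multiples of 1 step in 100% of cases (tolerance 0.001), which gave back the reads, the same from both tables of every library. Genes were matched by identifier.

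limma 3.58.1 (trend, robust; R 4.3.3) was run on log2(normalised count + 1) for the 6 pairs, and on log2(TMM-scaled reads + 1) of all 24 libraries, 1 mean a group, for comparisons across times. Alternatives were a pseudocount of 0.5 or 5, a filter at a mean of 50 or none, TMM or median-of-ratios factors, library totals, edgeR 4.0.16, DESeq2 1.42.0, the replicate number as a block, each library left out and replicates 1 and 2 or 3 and 4 alone; edgeR with the block was added after seeing the data. Code was tested on simulated data. No library was a duplicate (in 36 pairs within groups, chi-squared per degree of freedom was 1.30 to 5.44).

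Replicate numbers were taken as pairing the libraries: same-numbered libraries of compared groups, after group means were removed, correlated by 0.125 to 0.406 over 28 pairs for genes averaging 50 or more, and by 0.0693 to 0.243 for those averaging 10 or more. The main fits left this pairing out, and it entered only in the alternatives with a replicate block. The first principal component (25.8% of the variance, 10799 genes) separated replicates 1 and 2 from 3 and 4. The genes and lists were chosen with earlier results of these data known, so no list is independent evidence. Named are all members, up to 3 genes per list and comparison with the smallest adjusted p past the threshold, and the 5 genes most correlated with each D cyclin. Myc at 1 h falls outside this rule and was chosen after its values were seen. Values of some genes named by the rule are not reported here, though the counts of their lists include them. Promoters are RefSeq's.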

Additional observations from a re-analysis of the deposited data

Results flagged for a closer look

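Of 48 sets of 4 libraries (8 genes in 6 groups), 1 held a library far from the other 3 by Dixon's test at the 5% level, where chance flags about 5% of sets. It was Ccnd3 in the GLP-1 6h group, at 78.2 RPM in replicate 4 and 73.7 to 74.1 RPM in the others (gap over range 0.896).

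The response to an agent differed between 6 h and 1 h, by the test of that difference, for 4 of 7 genes tested with each agent. Of all genes, 22.2% passed the same test for BMS-21 and 17.8% for GLP-1. For BMS-21 the log2 differences were 1.22 for Ccnd1, 0.70 for Ccnd3, -0.51 for Ccnd2 and -0.32 for Cdkn1b. For GLP-1 they were 1.12 for Ccnd1, 0.56 for Ccnd3, -0.38 for Ccnd2 and -0.45 for Cdkn1b.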

How the results depend on the processing

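Over 66 results of single genes, 748 of 768 alternatives other than leaving out a library stayed on the same side of the threshold, 14 lost the call, 6 gained one and 0 reversed a call. On leaving out each library in turn 848 of 864 stayed on the same side, 15 were lost and 1 was gained. The sign changed in 17 and 38 of those that stayed, all with neither value past the threshold. The calls that moved are those named in the text for Ccnd3 at 1 h, Cdk4, Cdkn1a and Ccnd2 at 6 h, and for Ccnd1, Cdk4 and Cdkn1b over time in Control.

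In fits with a replicate block, genes called were 1551 (limma) and 1567 (edgeR) for BMS-21 against Control at 1 h, against 751 without it, and 1513 and 1542 for GLP-1, against 837. For BMS-21 against GLP-1 they were 85 and 86 at 1 h, against 0 (also 0 in edgeR and DESeq2; at an unadjusted p under 0.05, 432 in limma, 423 in edgeR and 178 in DESeq2), and 217 and 226 at 6 h, against 2. Of the 8 genes, 1 (Ccnd2) was then called at 6 h, and beside Cdkn1a for GLP-1 at 6 h the block changed no other call of theirs. The count of 2 became 1 at a mean of at least 50, 19 with DESeq2, 37 in replicates 1 and 2 alone, 39 in 3 and 4 alone, and 0 to 0 when each library was left out. Replicates 3 and 4 alone called 497 genes for BMS-21 at 1 h. The cause of these shifts was not tested.

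Library totals moved the split of all genes called. For BMS-21 it was 1510 higher and 3068 lower at 6 h (2125 and 2128 with the authors' factors) and 380 and 445 at 1 h (450 and 301). For GLP-1 it was 1451 and 2960 at 6 h (2044 and 1967) and 449 and 506 at 1 h (530 and 307). The depth limits Cdk6, whose 2 to 11 reads at 6 h left the agents untested against Control at that time.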
